A study of Mus musculus with 57 samples.

Results

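The cytosolic ribosomal protein genes encode the proteins that, with ribosomal RNA, form the small and large subunits of the ribosome outside mitochondria. They were taken by symbol: every gene named Rpl or Rps with a number (and a closing a or x where there is one), plus Rplp0, Rplp1, Rplp2 and Rpsa, with a mean value of at least 10 over all libraries. The rule found 76 genes among 51456 identifiers, 46 of the large and 30 of the small subunit, and none was lost to the minimum. They were followed in RNA sequencing of the prefrontal cortex of 57 C57BL/6N mice at postnatal day 25. Animals either carried 1 mutant copy of Shank2 (HT, heterozygous), a scaffold gene of excitatory synapses, or were wild type (WT), and drug or vehicle reached them through maternal milk from day 3 to day 24. The arms were HT fluoxetine (10 mice), HT lithium (10), HT vehicle (10), WT fluoxetine (10), WT lithium (9) and WT vehicle (8), each with females and males. Fluoxetine is a serotonin reuptake inhibitor and lithium a mood stabilizer. The labels name no litter, and pups reached by a drug through 1 mother share that mother as well as the drug.

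Ribosomal protein messages are among the most abundant of a cell, and their proteins are made in matched amounts because each ribosome carries 1 copy of nearly every one. Many of these messages begin with a C followed by a run of pyrimidines, the terminal oligopyrimidine (TOP) motif, through which the kinase complex mTORC1 controls their translation. In neurons, ribosomes also lie in dendrites and axons, where proteins are made near synapses.

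The starts of the genes were read from the RefSeq promoter table (GRCm38.p6), which held 66 promoters of 56 of the 76 genes. A start of C followed by at least 4 C or T bases, read on the gene's strand only, stood at 13 of these promoters (19.7%), against 2.3% of 15423 promoters of the other genes tested and 2.51% of all 32851 promoters in the table. The letters CTTTC lay within 10 bases of the start in 15.2% of the members' promoters on the gene's strand and in 1.52% on the opposite strand, against 2.22% and 1.95% of the promoters of the other genes tested (2.58% and 2.37% of all promoters). The 2 searches overlap, since CTTTC can be part of the first run. The windows below hold 15 bases before the start and 15 from it, with the pyrimidine run from the start in capitals. The first 5 belong to genes with the TOP-like start that come back in the results, and the last 3 to genes with some of the firmest changes and no such start in the table.
Rps21, chr2:180257364-180257393, plus strand: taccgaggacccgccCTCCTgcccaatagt
Rps15a, chr7:118116133-118116162, minus strand: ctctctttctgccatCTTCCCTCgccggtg
Rps10, chr17:27635230-27635259, minus strand: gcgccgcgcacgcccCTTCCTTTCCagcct
Rpl38, chr11:114668565-114668594, plus strand: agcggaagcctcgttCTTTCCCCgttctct
Rpl35a, chr16:33056467-33056496, plus strand: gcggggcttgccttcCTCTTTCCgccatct
Rpl39, chrX:37085208-37085237, minus strand: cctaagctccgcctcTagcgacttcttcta
Rpl41, chr10:128549154-128549183, minus strand: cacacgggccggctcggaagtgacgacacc
Rpl13a, chr7:45128731-45128760, minus strand: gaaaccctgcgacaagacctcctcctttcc

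Values are normalized estimated counts, on which read depth is no longer visible. The 76 genes made up 0.726 to 1.22% of the total per library, with a median of 0.804%. Shank2 was at 3877 to 5006 in the HT libraries and at 6762 to 11791 in the WT libraries, with no overlap. One library, WT vehicle male 2, stood apart with a geometric mean over the 76 genes of 4295, while the other 56 libraries lay between 2537 and 3333. That library also had the lowest summed astrocyte markers (100012, with the next lowest at 126633). Its summed oligodendrocyte markers were the highest (186947, with the next highest at 176291). The main counts and medians of the family are given with and without it, as are changes of named genes that it moves past the threshold. Other values that rest on WT vehicle include it unless said otherwise. Summed markers of excitatory neurons, which the prefrontal cortex should hold, ran from 175251 to 250593 per library. Those of striatal neurons ran from 6708 to 33637 and those of the olfactory bulb, a neighbouring tissue, from 522 to 14562. No marker of these 3 lists was at 0 in any library.

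Levels within the family spanned a wide range. Per kilobase of annotated transcript, the highest of the large subunit was Rplp1, an acidic protein of the stalk that recruits elongation factors, at 15002 normalized counts per kilobase, and the lowest was Rpl12, which sits at the base of that stalk, at 225. In the small subunit the highest was Rps29, a zinc-binding protein, at 10667 per kilobase, and the lowest was Rps27, another zinc-binding protein, at 349. Rps27 has a near-identical copy among which reads are divided by estimate. That copy, Rps27rt, averaged 1236 against 139 for Rps27, and the share of Rps27 in their sum ran from 1.93 to 56.4% between libraries. Likewise Rpl10, which joins the large subunit late in its assembly, averaged 1424 against 3311 for the pseudogene Rpl10-ps3, with a share of 15.9 to 51.0%. Rps23, of the small subunit, averaged 1997 against 1834 for Rps23-ps1, with a share of 44.1 to 58.6%. Values of Rps27, Rpl10 and Rps23 are therefore uncertain, and these pairs were picked after their values had been seen. Across the libraries the SD of log2 values was 1.22 for Rps27 and 0.239 for the sum with its partner, 0.349 for Rpl10 and 0.148 for the sum with Rpl10-ps3, and 0.162 for Rps23 and 0.136 for the sum with Rps23-ps1.

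The genes moved together from mouse to mouse. About the means of the 12 groups of genotype, drug and sex, the median pairwise correlation was 0.61 over 57 libraries. Of 2850 pairs, 2755 lay above zero. Both values describe libraries that share depth and preparation, and no like value is given for other genes. About the same group means, the family's mean level had a Pearson's r of -0.83 with the trend with transcript length described below. The first principal component of the family carried 49.99% of the variance. Genes were not scaled for it, so Rps27, with an SD of 1.21, can dominate it, and that share does not measure joint movement. The median SD about the group means was 0.126 on the log2 scale, against 0.166 for all 16659 genes tested. The steadiest were Rpl4, which lines the exit tunnel, and Rpl3, which reaches towards the peptidyl transferase centre, with SDs of 0.068 and 0.070, and Rpl7a with 0.089. The least steady were Rps27 (1.21), Rpl10 (0.344) and Rps20 (0.245), a protein of the head of the small subunit.

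Both drugs went with lower levels of the family in both genotypes. The geometric mean over the 76 genes ran from 2567 to 2998 with a median of 2711 in HT fluoxetine, from 2557 to 3117 with a median of 2628 in HT lithium, and from 2718 to 3231 with a median of 3012 in HT vehicle. It ran from 2565 to 3177 with a median of 2773 in WT fluoxetine, from 2537 to 3064 with a median of 2676 in WT lithium, and from 2891 to 4295 with a median of 3133 in WT vehicle. Each drug arm overlapped its vehicle arm, and the highest HT lithium and WT fluoxetine libraries lay above the medians of their vehicle arms. The arm means with their SD were 2742 ± 143 in HT fluoxetine, 2685 ± 166 in HT lithium and 3020.2 ± 167 in HT vehicle (n = 10 each), and 2801 ± 172 (n = 10) in WT fluoxetine, 2769 ± 207 (n = 9) in WT lithium and 3237 ± 454 (n = 8) in WT vehicle. Without WT vehicle male 2, the WT vehicle mean was 3086 ± 164 (n = 7). In bulk tissue, fewer cells of a type and less RNA per cell cannot be told apart.

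**Figure D1:**
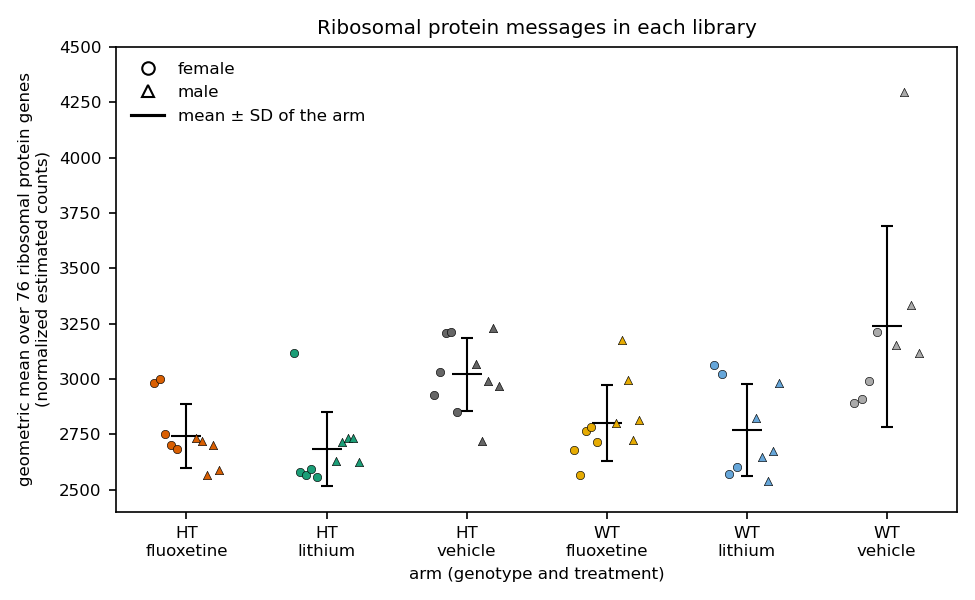
Geometric mean of the 76 ribosomal protein genes (vertical axis, normalized estimated counts, not starting at 0) in each library, by arm; circles are females, triangles males, and the line with bars is the mean and SD of the arm. The drug arms have means of 2685 to 2801, the vehicle arms 3020.2 and 3237, and 1 WT vehicle male stands at 4295.

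Gene by gene, the order of the arms was much the same. WT vehicle had the highest mean of the 6 arms for 71 of the 76 genes, and HT lithium the lowest for 52. HT fluoxetine was lowest for 11, WT lithium for 8 and WT fluoxetine for 5, while neither vehicle arm was lowest for any. Without WT vehicle male 2, WT vehicle was highest for 57 genes and HT vehicle for 14. The medians of the arm with drug lay below those of vehicle for 72 (HT fluoxetine), 74 (HT lithium), 73 (WT fluoxetine) and 75 (WT lithium) of the 76 genes, against 49.8, 48.9, 48.8 and 51.5% of all genes tested.

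Calls were made with limma at an adjusted p under 0.05 over all 16659 genes. Under fluoxetine in HT, 9 of the 76 genes fell and none rose, while 0.24% of all genes tested fell and 0.09% rose, and the median log2 change of the family was -0.13. Under lithium in HT, 24 fell and none rose, with 0.702% of all genes falling, 0.186% rising and a family median of -0.17. Under fluoxetine in WT, 22 fell and none rose, with 0.516% of all genes falling, 0.324% rising and a family median of -0.18. Under lithium in WT, 49 fell and none rose, with 3.08% of all genes falling, 5.45% rising and a family median of -0.22. Removing 1 library at a time gave counts of 2 to 15, 13 to 33, 2 to 36 and 29 to 58. The median change of all genes tested was within 0.01 of zero in each. Both subunits took part: of the 46 genes of the large subunit 7, 14, 12 and 26 fell in these 4 comparisons, and of the 30 genes of the small subunit 2, 10, 10 and 23. The comparisons within a genotype share their vehicle libraries.

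**Figure D2:**
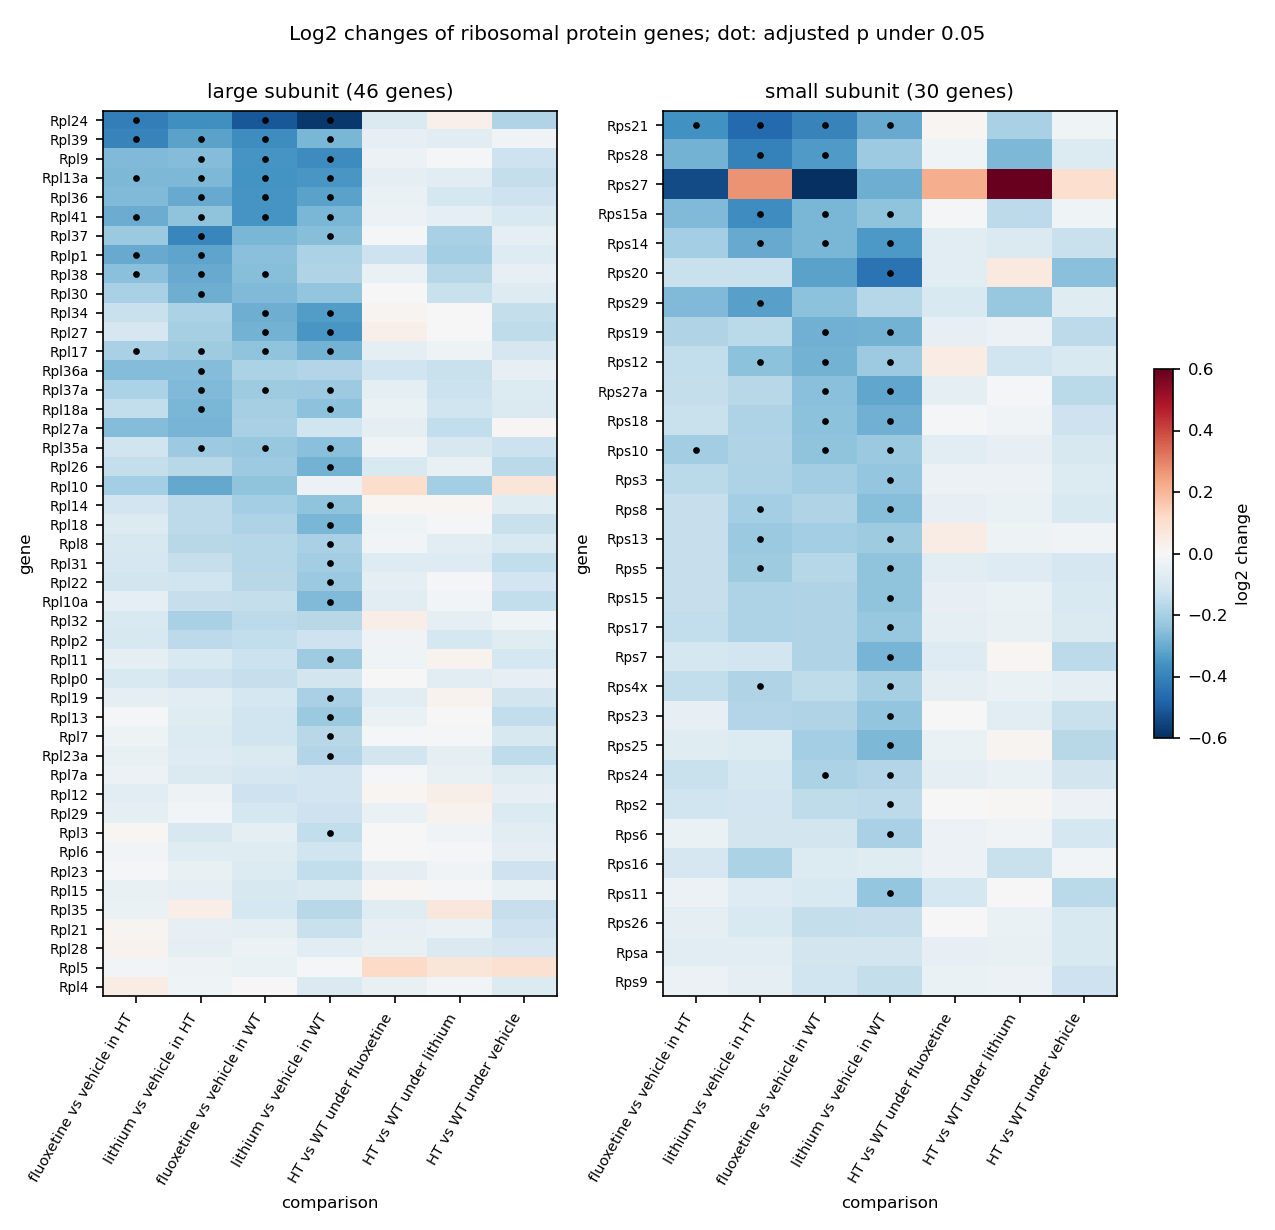
Log2 change (colour) of each gene of the large subunit (left, 46 genes) and the small subunit (right, 30 genes) in the 4 comparisons of a drug with vehicle and the 3 of HT with WT; a dot marks an adjusted p under 0.05. Blue, for lower, fills most of the 4 drug columns, with 9, 24, 22 and 49 dots, and the genotype columns hold none; Rps27, Rpl10 and Rps23 are uncertain.

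The WT counts leaned on WT vehicle male 2. Without that library 2 genes fell under fluoxetine in WT (0.024% of all genes tested) and 29 under lithium in WT (2.06%), with median changes of -0.13 and -0.17. Averaged over the genotypes, 46 of the 76 genes fell under fluoxetine (3.07% of all genes fell and 1.68% rose) and 62 under lithium (6.14% fell and 7.16% rose). Without the library it was 40 (1.96% of all genes) and 57 (4.84%). Their median log2 changes were -0.16 and -0.20 with it, and -0.13 and -0.17 without it. The HT comparisons do not use that library except for the estimate of the spread.

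Rpl39, a small protein at the exit of the tunnel through which new chains leave the ribosome, had the smallest adjusted p under fluoxetine in HT (ENSMUSG00000079641, GRCm38 chromosome X, 37082520 to 37085402). Its lowest, median and highest normalized counts were 883, 1010.2 and 1129.7 in HT fluoxetine, against 1128, 1316 and 1525 in HT vehicle. The highest drug library thus met the lowest vehicle library, and 9 of 10 lay below all vehicle libraries. The log2 change was -0.40 ± 0.08 (SE; adjusted p = 0.00968), and no single library's removal ended the call. It was -0.32 ± 0.08 under lithium in HT (adjusted p = 0.025), -0.37 ± 0.08 under fluoxetine in WT (adjusted p = 0.0182) and -0.27 ± 0.08 under lithium in WT (adjusted p = 0.0335). These 3 calls were less firm, since each of 8, 4 and 7 single libraries ended them when left out. The WT changes of Rpl39 without WT vehicle male 2 were -0.30 ± 0.08 under fluoxetine (adjusted p = 0.107) and -0.20 ± 0.08 under lithium (adjusted p = 0.13).

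Rpl41, which encodes the shortest protein of the ribosome, followed. It had 4245, 4760.3 and 5917 normalized counts (lowest, median, highest) in HT fluoxetine, against 5249, 6048 and 6896 in HT vehicle, and 4458, 4994 and 5901 in WT fluoxetine, against 5641, 6278 and 8113 in WT vehicle. In WT, 9 of 10 fluoxetine libraries lay below all vehicle libraries. The log2 changes under fluoxetine were -0.30 ± 0.06 in HT (adjusted p = 0.0136) and -0.35 ± 0.06 in WT (adjusted p = 0.00528), and under lithium -0.24 ± 0.06 in HT (adjusted p = 0.0351) and -0.27 ± 0.07 in WT (adjusted p = 0.00753). The lithium call in HT ended when any 1 of 14 libraries was left out, while no single library ended the other 3. The WT changes of Rpl41 without WT vehicle male 2 were -0.32 ± 0.07 under fluoxetine (adjusted p = 0.0416) and -0.24 ± 0.07 under lithium (adjusted p = 0.0295).

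Rpl13a, whose human protein can leave the ribosome and silence inflammatory messages, led the fluoxetine calls in WT (ENSMUSG00000074129, GRCm38 chromosome 7, 45125558 to 45128761). It had 3794, 4250.0 and 4717 normalized counts (lowest, median, highest) in WT fluoxetine, 3769, 4322 and 4799.8 in WT lithium and 4773, 5268 and 7665 in WT vehicle. Every fluoxetine library lay below every vehicle library. The log2 changes were -0.36 ± 0.06 (adjusted p = 0.00288) under fluoxetine and -0.35 ± 0.06 (adjusted p = 0.000714) under lithium in WT. Leaving out WT vehicle male 2 gave -0.29 ± 0.06 under fluoxetine (adjusted p = 0.0278) and -0.29 ± 0.06 under lithium (adjusted p = 0.00382). In HT they were -0.27 ± 0.06 under either drug, with adjusted p of 0.0203 for fluoxetine, a call that any 1 of 3 libraries ended when left out, and 0.012 for lithium.

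Rps21 and Rps15a, both of the small subunit and both with the TOP-like start printed above, had the smallest adjusted p under lithium in HT (0.00274 each). Rps21 (ENSMUSG00000039001, GRCm38 chromosome 2, 180257377 to 180258445) had 1391, 1617 and 2149 normalized counts (lowest, median, highest) in HT lithium, against 1825, 2274 and 2758 in HT vehicle, a log2 change of -0.47 ± 0.08. All 10 lithium libraries lay below the vehicle median. Rps15a (ENSMUSG00000008683, GRCm38 chromosome 7, 118104372 to 118116188) had 2483, 2891 and 3423 in HT lithium, against 3453, 3705 and 4347 in HT vehicle, a log2 change of -0.37 ± 0.07. Here the arms did not overlap, which held for no other of the 76 genes in that comparison and for 0.066% of all genes tested. Rpl37 of the large subunit came next with -0.39 ± 0.07 (adjusted p = 0.00488), and 9 of 10 of its lithium libraries lay below all vehicle libraries. Under lithium in WT the log2 change was -0.30 ± 0.09 for Rps21 (adjusted p = 0.0299) and -0.24 ± 0.07 for Rps15a (adjusted p = 0.0301). These WT calls ended when any 1 of 6 libraries was left out for Rps21, and any 1 of 7 for Rps15a. With WT vehicle male 2 left out the adjusted p was 0.12 for Rps21 and 0.0694 for Rps15a, with changes of -0.22 ± 0.09 and -0.22 ± 0.08.

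Rpl17, whose protein also lines the exit tunnel, led the lithium calls in WT (ENSMUSG00000062328). It had 3367, 3561 and 4049.6 normalized counts (lowest, median, highest) in WT lithium, 3441, 3748 and 4127 in WT fluoxetine and 4176, 4308 and 5633 in WT vehicle. Both drug arms lay wholly below the vehicle arm. The log2 changes were -0.28 ± 0.05 under lithium (adjusted p = 0.000444) and -0.24 ± 0.05 under fluoxetine (adjusted p = 0.0135) in WT, and -0.21 ± 0.04 under lithium (adjusted p = 0.0105) and -0.19 ± 0.04 under fluoxetine (adjusted p = 0.0352) in HT. After removal of WT vehicle male 2 the WT changes of Rpl17 were -0.23 ± 0.04 under lithium (adjusted p = 0.00206) and -0.19 ± 0.04 under fluoxetine (adjusted p = 0.0911), and the fluoxetine call in HT ended when any 1 of 11 libraries was left out. Rps14, whose loss of 1 copy marks a human anaemia, had 3332, 3574 and 4897 in WT lithium, against 4245, 4670.4 and 6035 in WT vehicle. These arms overlapped, and the log2 change was -0.35 ± 0.06 (adjusted p = 0.00124), or -0.31 ± 0.07 (adjusted p = 0.00519) without WT vehicle male 2.

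Complete separation was rare. No gene of the family separated HT fluoxetine from HT vehicle (0.036% of all genes tested did, with the drug lower), 2 separated WT fluoxetine from WT vehicle (Rpl17 and Rpl13a; 0.048% of all genes), and 2 separated WT lithium from WT vehicle (Rpl17 and Rpl24; 0.096% of all genes). Rpl24, a protein of the bridge between the subunits, was named after its values were seen. It had 1467, 1837 and 2152 normalized counts (lowest, median, highest) in WT lithium, against 2176, 2468 and 4392 in WT vehicle, with a log2 change of -0.58 ± 0.11 (adjusted p = 0.00124), or -0.48 ± 0.10 (adjusted p = 0.00589) without WT vehicle male 2.

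**Figure D3:**
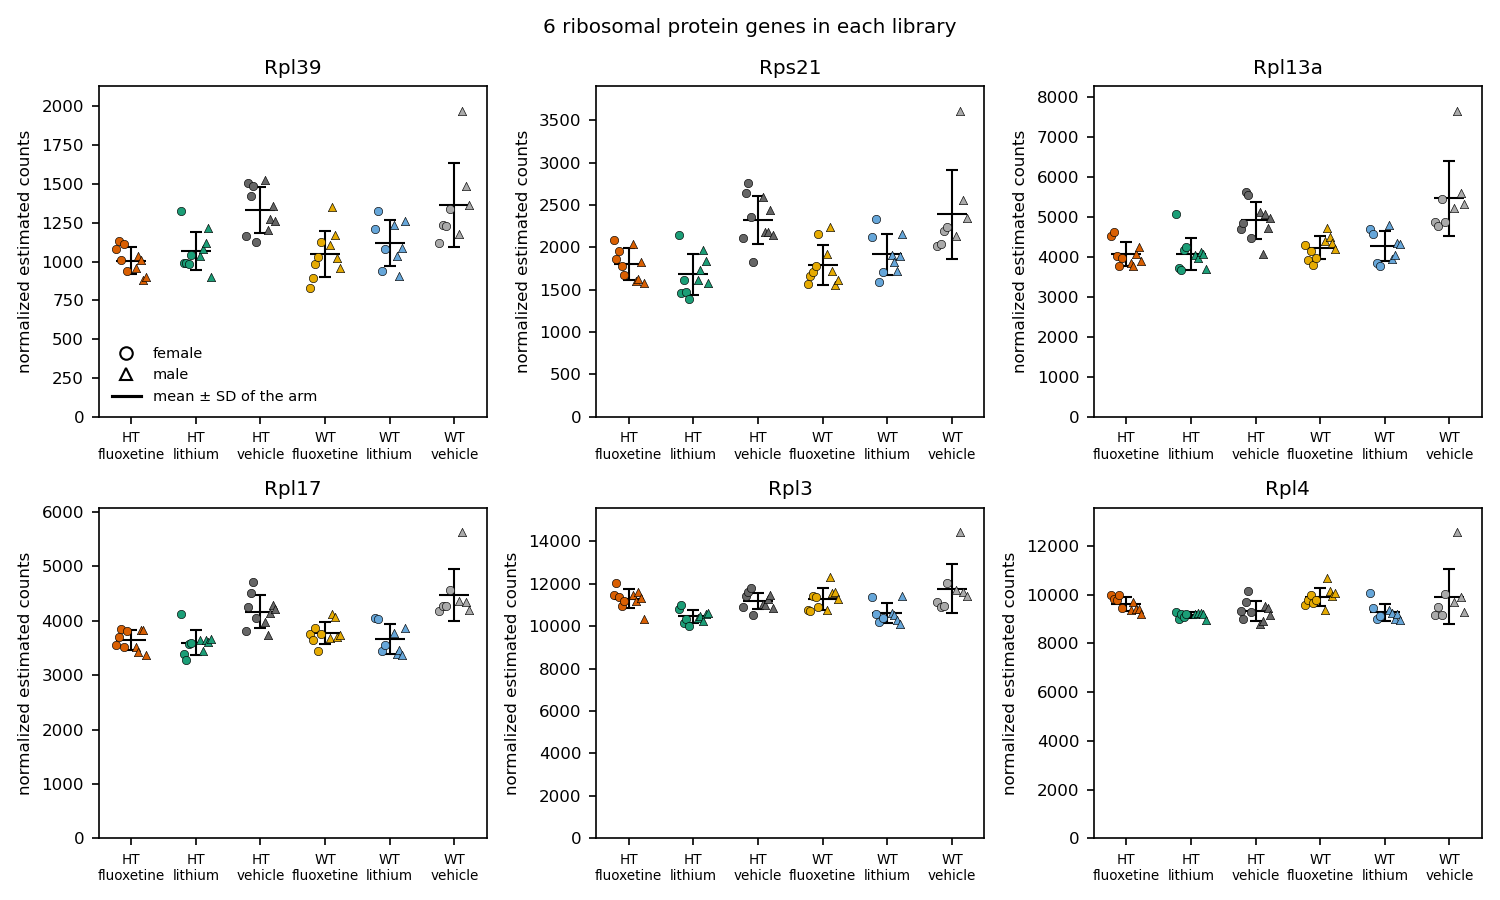
Normalized estimated counts (vertical axes from 0) of Rpl39, Rps21, Rpl13a, Rpl17, Rpl3 and Rpl4 in each library by arm; circles are females, triangles males, and the line with bars is the mean and SD of the arm. In Rpl17 the drug arms of WT end at 4127 and 4049.6, below the lowest WT vehicle library at 4176, while the fluoxetine arms of Rpl3 and Rpl4 overlap those of vehicle.

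Not every gene moved. Rpl4 had 9225, 9559 and 9986 normalized counts (lowest, median, highest) in HT fluoxetine, 8944, 9204 and 9295 in HT lithium and 8789, 9311 and 10167 in HT vehicle. Its log2 changes were 0.04 ± 0.03 under fluoxetine (adjusted p = 0.565) and -0.03 ± 0.03 under lithium (adjusted p = 0.8) in HT. All 10 HT lithium libraries lay below the HT vehicle median, and 5 of 10 HT vehicle libraries lay above every HT lithium library. With both the length term described below and WT vehicle male 2 left out, Rpl4 rose under fluoxetine averaged over the genotypes (0.07 ± 0.02, adjusted p = 0.036). Rpl3 had 10311, 11346 and 12024 in HT fluoxetine, 10000.3, 10427 and 10992 in HT lithium and 10530.2, 11175 and 11780.3 in HT vehicle. Averaged over the genotypes, Rpl3 fell by 0.12 ± 0.02 on the log2 scale under lithium (adjusted p = 0.000663), and its change under fluoxetine was -0.02 ± 0.02 (adjusted p = 0.639). The 2 drugs were not tested against each other. Rpl7a, of the large subunit, fell under lithium by 0.10 ± 0.03 (adjusted p = 0.0193) and had a change of -0.07 ± 0.03 under fluoxetine (adjusted p = 0.181), both averaged over the genotypes. Rplp1, the most abundant of the large subunit per kilobase, fell by 0.30 ± 0.07 under fluoxetine (adjusted p = 0.0279) and by 0.32 ± 0.07 under lithium (adjusted p = 0.0105) in HT, the first a call that any 1 of 7 libraries ended when left out. Rps29, the most abundant of the small subunit per kilobase, fell under lithium in HT by 0.33 ± 0.08 (adjusted p = 0.0215), a call that any 1 of 3 libraries ended. Rpl12, Rpl10 and Rps27 passed the test in no comparison. Rps20 fell under lithium in WT by 0.44 ± 0.12 (adjusted p = 0.0122), or by 0.36 ± 0.11 (adjusted p = 0.0489) without WT vehicle male 2.

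The effects of each drug in HT and in WT, which share no libraries, can be set side by side. Of the genes that fell under lithium, 18 did so in both genotypes, 75% of the 24 in HT and 36.7% of the 49 in WT, where those 49 were 64.5% of the family. Under fluoxetine it was 8, 88.9% of the 9 in HT and 36.4% of the 22 in WT, which were 28.9% of the family. Of all genes tested, 61 fell under lithium in both genotypes (52.1% of the 117 in HT and 11.9% of the 513 in WT), and 21 under fluoxetine (52.5% of the 40 in HT and 24.4% of the 86 in WT). Across the 76 genes the Spearman correlation of the HT with the WT change was 0.88 for fluoxetine and 0.46 for lithium, a description of genes that share libraries. These shared counts and correlations include WT vehicle male 2 and are not given without it. Without that library, 2 of the 76 genes fell under fluoxetine in WT (0.024% of all genes tested) and 29 under lithium (2.06%). The difference of the drug effect between the genotypes passed with limma for 0 of the 76 genes under either drug, and for 0% of all genes tested. At an unadjusted p under 0.05 there were 0 of the 76 for fluoxetine (7.71% of all genes tested) and 1 for lithium (7.31%), with medians of 0.06 and 0.05 (HT minus WT) over all libraries and of -0.00 and 0.00 without WT vehicle male 2. The smallest unadjusted p belonged to Rps25, Rpl13 and Rpl27. Rps25, which some viral messages need to start translation, had 2251, 2497 and 2906 normalized counts (lowest, median, highest) in HT lithium and 2128, 2579 and 3075 in HT vehicle, and 2240.0, 2419 and 2922 in WT lithium and 2537, 2872 and 4242 in WT vehicle. Its lithium change was -0.08 ± 0.06 in HT and -0.27 ± 0.06 in WT, a difference of 0.19 ± 0.09 (limma, adjusted p = 0.664, unadjusted p = 0.0378), or 0.11 ± 0.08 (adjusted p = 0.669, unadjusted p = 0.14) without WT vehicle male 2. For Rpl13 the lithium changes were -0.07 ± 0.05 in HT and -0.22 ± 0.05 in WT (adjusted p of the difference = 0.679). For Rpl27 the fluoxetine changes were -0.10 ± 0.06 in HT and -0.28 ± 0.07 in WT (adjusted p of the difference = 0.653). Without that library the differences were 0.10 ± 0.07 for Rpl13 under lithium (adjusted p = 0.682) and 0.10 ± 0.08 for Rpl27 under fluoxetine (adjusted p = 0.79).

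The Shank2 genotype by itself changed no gene of the family past the threshold. With limma, 0 of 76 passed for HT against WT under fluoxetine, under lithium and under vehicle, where 0.222, 0.114 and 0.762% of all genes tested did. At an unadjusted p under 0.05 there were 2, 9 and 29 of the 76, where 10.5, 7.75 and 14.8% of all genes tested were. The medians were -0.04, -0.04 and -0.09. Under vehicle 72 of the 76 estimates were negative, against 51.0% of all genes tested, with the smallest adjusted p of 0.157 for Rpl13. Without WT vehicle male 2 the median was -0.05 and the adjusted p of Rpl13 was 0.397.

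Within each sex, limma made calls in WT males. There 22 genes fell under fluoxetine (1.27% of all genes tested) and 66 under lithium (3.82%), with medians of -0.24 and -0.34. These comparisons use the vehicle group that holds WT vehicle male 2. Without that library 0 genes fell under fluoxetine with limma (0% of all genes; 29 of the 76, against 8.78% of all genes, at an unadjusted p under 0.05) and 4 under lithium (0.264% of all genes), with medians of -0.13 and -0.22. In the other 6 comparisons within a sex, limma called 0 of the 76, with at most 0.006% of all genes tested falling and between 13 and 39 of the 76 at an unadjusted p under 0.05, against 7.37 to 15.5% of all genes. Their medians were -0.11 and -0.15 for HT females and males under fluoxetine, -0.16 and -0.16 for HT females and males under lithium, and -0.15 and -0.09 for WT females under fluoxetine and lithium. The difference of the effect between males and females passed with limma for 0 of the 76 under either drug (0.006% of all genes under fluoxetine and 0% under lithium), with 5 of the 76 under fluoxetine (11.5% of all genes) and 7 under lithium (5.62% of all genes) at an unadjusted p under 0.05.

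Among messages of the family of up to 2000 bases, changes averaged over the genotypes were larger in the shorter ones. Under lithium in WT alone, the median was -0.22 up to 500 bases and -0.25 over 500 and up to 700 bases. There 6 of 13 and 21 of 25 genes fell, against 5.77 and 4.61% of other genes of those lengths. Averaged over the genotypes, the 13 genes with annotated transcripts of up to 500 bases had a median log2 change of -0.26 under fluoxetine and -0.24 under lithium, and 10 and 12 of them fell. The 12 genes of over 1000 and up to 2000 bases had medians of -0.09 and -0.11, and 4 and 6 fell. Of other genes of that length, 2.71 and 7.61% fell. The 2 genes of over 2000 bases, Rps20 and Rpl22, had medians of -0.18 and -0.23. Over the 76 genes the Spearman correlation of change with transcript length was 0.51 under fluoxetine and 0.45 under lithium. With the mean value of the gene it was 0.34 and 0.24. These genes are not independent. Other genes of up to 500 bases, 312 in number, had medians of -0.04 and -0.06, with 10.9 and 13.8% falling. Annotated lengths are uncertain where a gene has several transcripts, and that of Rps20 (3706 bases) is that of 1 long transcript.

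**Figure D4:**
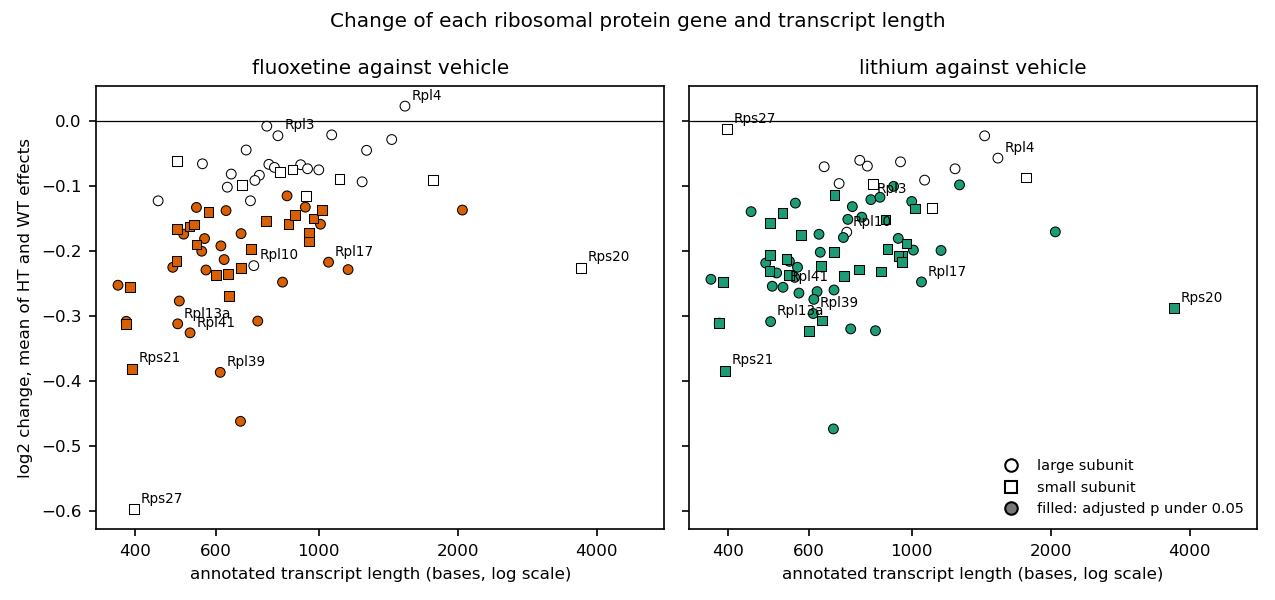
Log2 change of each gene averaged over HT and WT (vertical axis) against annotated transcript length in bases (horizontal, log scale), for fluoxetine (left) and lithium (right); circles are the large and squares the small subunit, and filled symbols passed the test (46 and 62). Nearly all points lie below zero, lower at the short end.

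A trend with length ran through whole libraries. It was measured as the Spearman correlation, over tested genes outside the family, between a library's deviation from the mean of all libraries and transcript length, so that a positive value means relatively higher long transcripts. It averaged 0.03 ± 0.11 in HT fluoxetine and 0.07 ± 0.09 in HT lithium, against -0.06 ± 0.07 in HT vehicle (SD, n = 10 each). It averaged 0.01 ± 0.06 in WT fluoxetine (n = 10) and 0.05 ± 0.10 in WT lithium (n = 9), against -0.10 ± 0.14 in WT vehicle (n = 8), where WT vehicle male 2 was at -0.41. Two-sided permutation tests over libraries, adjusted over the 4 comparisons, gave p of 0.0549 for fluoxetine and 0.012 for lithium in HT, and exact ones 0.0357 and 0.0319 in WT. Without WT vehicle male 2 the WT values were 0.0603 each. The trend thus differed past the threshold from vehicle for lithium in HT, and in WT only with that library. The family's mean log2 level went against this trend, with Pearson's r of -0.88 and Spearman's rho of -0.84 over 57 libraries, and of -0.83 and -0.78 about the means of the 12 groups (permutation p = 1e-05 each, also after adjustment over 2 relations, the smallest that the resamples can give). Leaving out the 2 libraries farthest from the median gave r of -0.83 and -0.77.

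**Figure D5:**
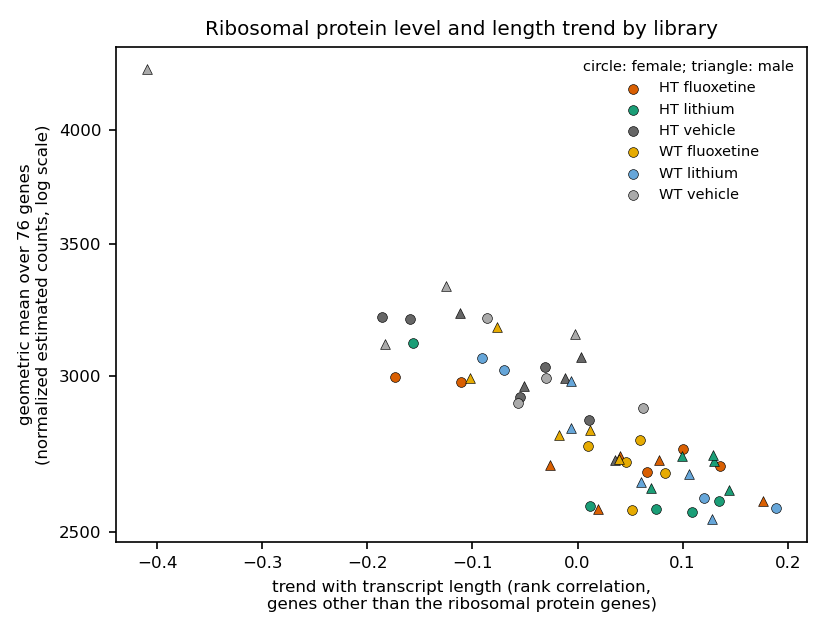
Geometric mean of the 76 genes (vertical, normalized estimated counts, log scale) against the library's trend with transcript length (horizontal, rank correlation over other genes), 1 point per library, coloured by arm. Libraries with relatively higher long transcripts have lower ribosomal protein levels, with Pearson's r of -0.88, and WT vehicle male 2 lies at -0.41 and 4295.

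With the trend of each library as a term in the fit, fewer genes passed and the medians shrank. Under fluoxetine 4 of 76 fell in HT (Rpl41, Rpl39, Rpl13a and Rps10; 0.792% of all genes were called) and 0 in WT (0% of all genes). Under lithium 0 fell in HT (0.054% of all genes) and 1 in WT (Rpl17; 0.51% of all genes). The medians were -0.05 (HT fluoxetine), -0.05 (HT lithium), -0.08 (WT fluoxetine) and -0.08 (WT lithium). Averaged over the genotypes, 13 genes fell under fluoxetine (0.672% of all genes called), among them Rpl41 (-0.20 ± 0.03, adjusted p = 0.000337), Rpl13a (-0.21 ± 0.03, adjusted p = 0.00049), Rpl39 (-0.26 ± 0.05, adjusted p = 0.00355) and Rps21 (-0.24 ± 0.05, adjusted p = 0.00956). Under lithium 4 did (1.16% of all genes called), namely Rpl17 (-0.14 ± 0.03, adjusted p = 0.0099), Rps14 (-0.17 ± 0.04, adjusted p = 0.0121), Rpl13a (-0.16 ± 0.04, adjusted p = 0.0147) and Rps15a (-0.22 ± 0.06, adjusted p = 0.0356). Of 65 called changes of the genes named by rule, 50 lost the call. The mean trend lay higher with drug than with vehicle in each of the 4 comparisons, with the tests given above, and the part of the trend in the fall of the family was not tested.

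Genes with and without the TOP-like start at the listed position had like medians, with no test of the difference. Averaged over the genotypes, the median change under fluoxetine was -0.17 for the 13 genes with the start and -0.14 for the 43 without it, and under lithium -0.20 and -0.20. Of those 13 genes 7 fell under fluoxetine and 9 under lithium, and of those 43 genes 27 and 35. In the same averages 3.07% of all genes tested fell under fluoxetine and 6.14% under lithium. These medians, counts and shares include the WT vehicle male that stood apart, and the split is not given without that library. Rpl38, a large-subunit protein that helps to translate Hox messages in the mouse, Rpl35a of the large and Rps10 of the small subunit are among the 13, and Rpl39, Rpl41 and Rpl13a among the 43. These letters in the table's windows say nothing on the start sites used in this tissue. In Rpl18, counted as without the start, a C followed by pyrimidines begins just after the listed position. The split therefore does not sort the genes by whether their messages begin with the TOP motif.

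Genes related to the family were counted beside it. Of all genes tested, 0.24, 0.702, 0.516 and 3.08% fell in HT fluoxetine, HT lithium, WT fluoxetine and WT lithium. In that order 0.09, 0.186, 0.324 and 5.45% rose. Without WT vehicle male 2, 0.024% fell under fluoxetine and 2.06% under lithium in WT. Of 10 ribosomal relatives kept out by the rule (fusion genes, paralogs and the scaffold Rack1), 0 and 0 fell under fluoxetine and lithium in HT, 1 fell under fluoxetine in WT (Rpl22l1, -0.34 ± 0.09, adjusted p = 0.0491) and 5 fell under lithium in WT, first Fau, a fusion of a ubiquitin-like protein with Rps30 (-0.26 ± 0.06, adjusted p = 0.00635). In WT it was 0 and 1 without WT vehicle male 2, with Rpl22l1 at an adjusted p of 0.19 and Fau at 0.0299. Their medians were -0.12, -0.15, -0.18 and -0.23. Without that library the medians of the relatives in WT were -0.13 and -0.16. Of 31 TOP messages outside the family, many of them translation factors and 3 of them also among the relatives, 0, 3, 0 and 4 fell in HT fluoxetine, HT lithium, WT fluoxetine and WT lithium, with medians of -0.01, -0.07, -0.04 and -0.10. They included Gas5, a TOP host gene of small nucleolar RNAs (-0.25 ± 0.06 in HT, adjusted p = 0.0217; -0.28 ± 0.06 in WT, adjusted p = 0.00442), and Eif3f, an initiation factor subunit (-0.21 ± 0.05 in HT, adjusted p = 0.0213; -0.19 ± 0.05 in WT, adjusted p = 0.022), all under lithium. In WT, 0 and 2 of the 31 fell without that library, with Gas5 at an adjusted p of 0.0182 and Eif3f at 0.0657. The 31 then had medians of 0.01 and -0.05 in WT. Of 78 mitochondrial ribosomal proteins 0, 0, 1 and 3 fell, with medians of -0.05, -0.05, -0.08 and -0.08. Of 15 tested pseudogenes named after members, 0, 0, 0 and 1 fell and 0, 0, 1 and 1 rose. Without that library 0 and 1 of the 78 fell in WT and 0 and 1 rose, and of the 15 pseudogenes 0 and 0 fell and 0 and 1 rose. The medians of the 78 were then -0.03 and -0.002 in WT.

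Genes of the machinery that makes ribosomes were counted in the order HT fluoxetine, HT lithium, WT fluoxetine and WT lithium. Of all genes tested, 0.24, 0.702, 0.516 and 3.08% fell and 0.09, 0.186, 0.324 and 5.45% rose. Of 58 ribosome biogenesis factors, 0, 0, 0 and 1 fell and 0, 1, 0 and 1 rose, with medians of 0.02, 0.01, 0.00 and -0.01. These counts are too small to set apart from the shares of all genes. The called ones were Utp14b (0.44 ± 0.10 under lithium in HT, adjusted p = 0.0142), Gnl3l (0.17 ± 0.04 under lithium in WT, adjusted p = 0.00948) and Emg1 (-0.25 ± 0.07 under lithium in WT, adjusted p = 0.0151; 0.0622 without WT vehicle male 2). Of 15 RNA polymerase I genes, which transcribe ribosomal RNA, 0, 0, 0 and 2 fell, namely Ubtf (-0.16 ± 0.04, adjusted p = 0.00594) and Taf1a (-0.20 ± 0.06, adjusted p = 0.0214).

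Of 42 genes of the mTORC1 pathway, 1, 3, 1 and 4 fell and 0, 0, 0 and 5 rose in the same order, with medians between -0.01 and 0.01. Of all genes tested, 0.24, 0.702, 0.516 and 3.08% fell and 0.09, 0.186, 0.324 and 5.45% rose. Without WT vehicle male 2, 0 and 2 of the 42 fell in WT, against 0.024 and 2.06% of all genes, and 0 and 2 rose. Ddit4, an inhibitor of mTORC1, had a mean of 1184 ± 145 normalized counts in HT lithium, against 1559.8 ± 162 in HT vehicle (n = 10 each), and fell by 0.40 ± 0.09 (adjusted p = 0.0142). In WT it fell under lithium by 0.41 ± 0.10 (adjusted p = 0.00603). Lamtor4, a subunit of the complex that anchors mTORC1 at lysosomes, fell under lithium in HT (-0.25 ± 0.06, adjusted p = 0.0156) and under fluoxetine in WT (-0.24 ± 0.06, adjusted p = 0.0367; 0.158 without WT vehicle male 2), and Eif4e, the cap-binding factor, under fluoxetine in HT (-0.28 ± 0.07, adjusted p = 0.0411).

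Cell type markers were read in the same fits. Of the 9 lists, 8 (excitatory and inhibitory neurons, astrocytes, oligodendrocytes, microglia, endothelium, striatal neurons and olfactory bulb) had 0 genes past the threshold in the 4 drug comparisons with limma, and between 0 and 4 genes each at an unadjusted p under 0.05. In WT without WT vehicle male 2, 1 inhibitory marker rose under lithium. Excitatory neuron markers then had a median of 0.24 under lithium, with 5 of 7 at an unadjusted p under 0.05 and 0 past the threshold. Under fluoxetine their median was 0.08, with 2 of 7 at an unadjusted p under 0.05. No other of these lists had over 2 such genes. Red cell genes were the exception: 4 of 5 fell under fluoxetine in WT, against 0.516% of all genes tested, with a median of -0.93. Under lithium in WT all 5 estimates were negative with a median of -0.53, 0 passed the threshold and 4 had an unadjusted p under 0.05. The summed level of the 5 genes was 3591 to 8818 in WT fluoxetine, 5425 to 10819 in WT lithium and 7673 to 19853 in WT vehicle, and none was at 0. The red cell medians in WT without that library were -0.87 and -0.46, with 0 genes past the threshold and 5 and 1 at an unadjusted p under 0.05. In HT they were -0.23 under fluoxetine and 0.03 under lithium. Olfactory bulb markers had medians of 1.07 (HT fluoxetine), -0.30 (HT lithium), -0.09 (WT fluoxetine) and -0.54 (WT lithium), and striatal markers of 0.50, 0.22, -0.17 and -0.42 in that order. In WT without WT vehicle male 2 the medians were 0.06 and -0.36 for olfactory bulb and -0.21 and -0.52 for striatal markers. The summed olfactory bulb level was 894 to 8517 in HT fluoxetine, 522 to 9696 in HT lithium and 704 to 4416 in HT vehicle, and 622 to 11218 in WT fluoxetine, 900 to 3909 in WT lithium and 541 to 14562 in WT vehicle. The part of these cells in the change of the ribosomal protein genes was not tested.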

How the data were processed

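RNA of the prefrontal cortex was sequenced from 57 mice in 12 groups of genotype, drug and sex with 4 or 5 libraries each. The libraries were stranded and made from mRNA, per the labels' protocols. The deposited table holds a nonnegative signal, estimated counts after normalization. The submitters' processing notes name Salmon 0.11.2, DESeq2 1.19.11, R 3.6.0 and the build GRCm38. Annotation release, filters and strand setting were not given in those sources. Values are not whole and 1 read has no common worth within a library, so reads were not recovered, depth is unknown and no counting interval is given. Salmon divides reads among near-identical genes by estimate.

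Of 51456 identifiers, 51285 had a symbol in GENCODE vM21 (GRCm38), which also gave transcript lengths (median over protein-coding transcripts). A linear model on log2(value + 1) was fitted to 16659 genes with a mean of at least 10 (limma 3.58.1 under R 4.3.3, moderated with a trend and robustly). A pseudocount of 1 understates changes of low genes. 1 fit held the 12 groups, effects are means over the sexes, and p-values were adjusted by Benjamini-Hochberg over all genes. ± is the SE of the fit after a log2 change and the SD after a mean. Python 3.11.15, scipy 1.17.1 (permutation tests, two-sided, with 100000 resamples, or exact where an arm had under 10 libraries) were also used. Surrogate variables were computed in R by iterative reweighting. The fit was tested on simulated data.

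The members, lists, tests and alternatives were chosen with earlier results of these data known. Named genes were the 3 called members with the smallest adjusted p per comparison of drug with vehicle or HT with WT, the highest and lowest per kilobase in each subunit, the 3 largest and 3 smallest SDs, the 3 smallest p of a difference between genotypes, and up to 3 called genes of other lists. Exceptions, seen first, are Rpl24, Rps27rt, Rpl10-ps3, and the further genes with a printed start or a call under the length term. Replicate numbers come from the titles, which give no litter, so a p-value speaks of the spread among these samples, part of which may be technical. Alternatives covered the pseudocount, filters, scaling, fit design, a replicate block, the length trend, surrogate variables and each library left out. The term together with removal of WT vehicle male 2, its removal within males, and the block by library name were added after seeing the data.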

Additional observations from a re-analysis of the deposited data

Results flagged for a closer look

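Within groups of 4 to 10 libraries, a library was picked out when its gap to the nearest other, over the range of the group, passed Dixon's critical value. Of 144 sets (the geometric mean and the length trend in 12 groups, and 20 named genes in 6 arms), 24 gave such a library, where chance gives about 1 in 20, and the named genes are not independent of each other.

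Most of these were WT vehicle male 2 or HT lithium female 1, both with high values. HT lithium female 1 had a geometric mean of 3117, against 2557 to 2592 in the other HT lithium females. Its normalized counts were also apart from the other HT lithium libraries for Rpl41 (6864), Rpl13a (5069.7), Rpl17 (4133), Rps14 (4338), Rplp1 (8660.2), Rps25 (2906) and Rpl13 (5596).

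WT vehicle male 2 was apart from the other WT vehicle libraries for Rpl39 (1973), Rpl13a (7665), Rps21 (3614), Rpl17 (5633), Rpl4 (12569), Rpl3 (14433), Rpl7a (8767), Rps25 (4242) and Rpl27 (2805).

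The remaining values were Rps27 in HT fluoxetine male 5 (532) and HT lithium male 5 (794), Rpl10 in HT fluoxetine female 4 (2507) and, on the low side, in WT vehicle female 2 (935), Rps20 in WT fluoxetine male 3 (2544), Rpl4 in WT lithium female 1 (10067) and Rpl27 in WT lithium male 5 (1749). Rps27 and Rpl10 are among the genes whose reads are divided with a near-identical copy.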

How the results depend on the processing

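None of the 65 called changes of named genes reversed. Of the family medians, 2 changed sign: the male minus female difference of the fluoxetine effect (-0.08) was 0.00206 with 2 surrogate variables, and the HT minus WT difference of the fluoxetine effect (0.06) was -0.00103 without WT vehicle male 2. The counts of genes called, all of which fell except 1 named below, in the order HT fluoxetine, HT lithium, WT fluoxetine, WT lithium, and fluoxetine and lithium averaged over genotypes, were 9, 24, 22, 49, 46 and 62. With the length term they were 4, 0, 0, 1, 13 and 4, with the length term and without WT vehicle male 2 (added after seeing the data) 6, 0, 2, 6, 15 (14 fell, and Rpl4 rose by 0.07 ± 0.02, adjusted p = 0.036 with limma) and 11, and with the replicate block and the length term 3, 0, 2, 1, 13 and 5. The replicate block alone moved WT fluoxetine to 12 and no other count by over 1.5 times. Same-numbered libraries did not deviate together over all genes tested (median r of -0.01 over 300 pairs, and 10 of 57 libraries were closest to their own number). A weak pairing, or one confined to some genes, could be missed this way, so whether the numbers pair the libraries is unknown. For 3 WT vehicle females the number ending the library name differs from that of the title. With the numbers of the names (added after seeing the data) the median r was -0.01 over 298 pairs, 4 of 57 libraries were closest to their own number, and the block gave 7, 22, 21, 49, 45 and 62.

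Medians under the length term were -0.0477 (HT lithium), -0.0783 (WT fluoxetine), -0.0777 (WT lithium) and -0.0654 (lithium over genotypes), with the block added -0.0464, -0.0796, -0.0768 and -0.0638, and with the term after removal of the male -0.0623, -0.0682, -0.0722 and -0.0685. The cause of these moves was not tested. Without the filter on low values, 3 genes fell in HT fluoxetine and 11 in WT fluoxetine, with more genes tested. Quantile normalization gave 5 in HT fluoxetine, and 2 surrogate variables gave 15 in HT fluoxetine and 14 in HT lithium. Fits of 6 arms plus sex give no value for the difference between the sexes. Fitting each comparison on its own groups alone, WT fluoxetine gave 1 and WT lithium 9, with fewer samples behind the spread.

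Leaving out 1 library at a time gave 2 to 15 genes in HT fluoxetine (2 without HT fluoxetine female 4 or HT vehicle female 3, 3 without HT fluoxetine female 5 or HT vehicle female 4 or male 4, 4 without HT fluoxetine male 5, 5 without HT fluoxetine male 3, HT vehicle female 2 or males 1, 3 or 5, and 15 without HT vehicle female 5), 13 to 33 in HT lithium (13 to 15 without HT lithium female 5 or HT vehicle females 2 or 4 or male 1, 33 without HT lithium female 1), 2 to 36 in WT fluoxetine (2 without WT vehicle male 2, 8 to 13 without WT fluoxetine males 1, 4 or 5 or WT vehicle females 3 or 4, 34 and 36 without WT vehicle males 4 and 1), 29 to 58 in WT lithium (29 without WT vehicle male 2), 40 to 50 and 57 to 67 over genotypes, and 0 to 1 for HT against WT under vehicle (1 without WT vehicle male 4). Of 65 called changes of named genes, 50 lost the call under the length term, 17 on the groups of the comparison alone, 13 without the filter and 0 to 4 under each of pseudocount 10, a minimum mean of 100, both rescalings, 6 arms plus sex, no moderation, the block and surrogate variables. With 1 library left out at a time, 135 of 1733 such calls were lost.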
